A study of Homo sapiens with 54 samples.

Results

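The response to 17-beta-estradiol (E2) was compared between 2 human prostate cancer cell lines, 22Rv1 and LNCaP. For every expressed gene the quantity of interest was the change with E2 over vehicle in 22Rv1 minus the change with E2 over vehicle in LNCaP, estimated in 1 linear model. It rests on 12 of the 54 libraries of the series: 3 of 22Rv1 with E2 (100 nM), 3 of 22Rv1 with vehicle, 3 of LNCaP with E2 (100 nM) and 3 of LNCaP with vehicle. All were treated for 12 h in RPMI with 10% fetal bovine serum, the vehicle was ethanol, and the 3 libraries of a group were biological triplicates per the labels. The series also holds the line C4-2 and the agents OSU-ERb-12 and enzalutamide (Enza, an antiandrogen used against prostate cancer). Of these, the 12 libraries of 22Rv1 and LNCaP given Enza (1 µM) with or without E2 were used as a second set. They are other samples of the same 2 lines and share no library with the first set. In addition, 6 C4-2 libraries were set beside the main result.

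LNCaP was derived from a lymph node metastasis and 22Rv1 from a xenograft that relapsed after castration, so that each is a single line and stands for no other tumour. E2 acts through the nuclear receptors ESR1 and ESR2, which bind DNA and recruit coactivators. Androgens are the chief growth signal of luminal prostate cells, where they induce kallikreins such as KLK3 (prostate-specific antigen) and repress another set of genes.

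Between 37222868 and 48188358 reads in genes were recovered per library, and 1 read was worth 0.0207 to 0.0255 CPM. CPM are reads per 1000000 of the authors' effective library size, which was 0.966 to 1.12 times the recovered reads. In 22Rv1 this ratio was 1.08 to 1.12 with vehicle and 1.04 to 1.06 with E2. In LNCaP it was 0.975 to 1.04 with vehicle and 0.966 to 0.972 with E2. The lowest correlation of any library with its own group was 0.9964, and the highest with any library of the other line was 0.8304. Both lines had markers of luminal prostate epithelium, some at like and some at unlike levels. FOXA1 lay between 412 and 470 CPM in 22Rv1 and between 425 and 467 CPM in LNCaP. HOXB13 lay between 215 and 244 CPM in 22Rv1 and between 406 and 481 CPM in LNCaP. KLK3 was low in 22Rv1, at 8.28 to 22.3 CPM. The marker ACP3 was low in both, at 2.88 to 4.86 CPM in 22Rv1 and 6.82 to 13.3 CPM in LNCaP. Of the markers of other cell types, COL1A1 (a collagen of fibroblasts) reached 3.34 CPM in 22Rv1 and 19.6 CPM in LNCaP, and VWF (von Willebrand factor, of endothelium) 0.144 CPM in 22Rv1 and 18.7 CPM in LNCaP, while KRT14, SYP and CHGA stayed under 3 CPM in both. Vehicle libraries stood apart in 2 cases. 22Rv1 vehicle 3 held 0.196% mitochondrial ribosomal RNA, against 0.0084 to 0.065% in the other 11, and LNCaP vehicle 1 held 13.2% small RNA, against 16.02 to 17.7% in the other 5 libraries of LNCaP. Main counts are therefore also given without them.

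The E2 response differed between the lines for 1821 of 15358 genes tested (11.9%). The difference was above 0, meaning more positive in 22Rv1, for 1117 (7.27%) and below 0 for 704 (4.58%). A gene was called where limma's moderated test gave a Benjamini-Hochberg adjusted p under 0.05, and the value after ± is the standard error, with n = 3 libraries per group throughout. Within 22Rv1, E2 changed 4974 genes (32.4%), of which 3242 rose (21.1%) and 1732 fell (11.3%). Within LNCaP it changed 2970 (19.3%), of which 1607 rose (10.5%) and 1363 fell (8.87%). More genes passed the test in 22Rv1, while large changes were more frequent in LNCaP, where 131 called genes moved by at least 1 on the log2 scale, against 82 in 22Rv1. This was a comparison of counts and was not tested. Most of the differences were small: the median size among the 1821 was 0.36 on the log2 scale, the smallest was 0.136, and 132 reached 1, of which 46 were above 0 and 86 below. The split into above and below 0 depended on the scaling: with cyclic loess, which removes a trend with level, 740 were above and 798 below. Likewise E2 in 22Rv1 gave 1469 rises and 2295 falls with total-read scaling and 1704 and 1710 with cyclic loess, and E2 in LNCaP 1070 rises and 2223 falls with total-read scaling. Without 22Rv1 vehicle 1, 3230 genes were called for E2 in 22Rv1. Without both vehicle libraries that stood apart, 2275 genes were called, 1467 above and 808 below 0.

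The direction of the difference varied with the level of a gene. Under 2 CPM on average, the median difference was -0.079, with 2.34% of genes called above 0 and 4.83% below. From 100 CPM up, the median was 0.0792, with 16.2% called above 0 and 5.09% below. What part technical factors have in this trend was not tested.

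**Figure D1:**
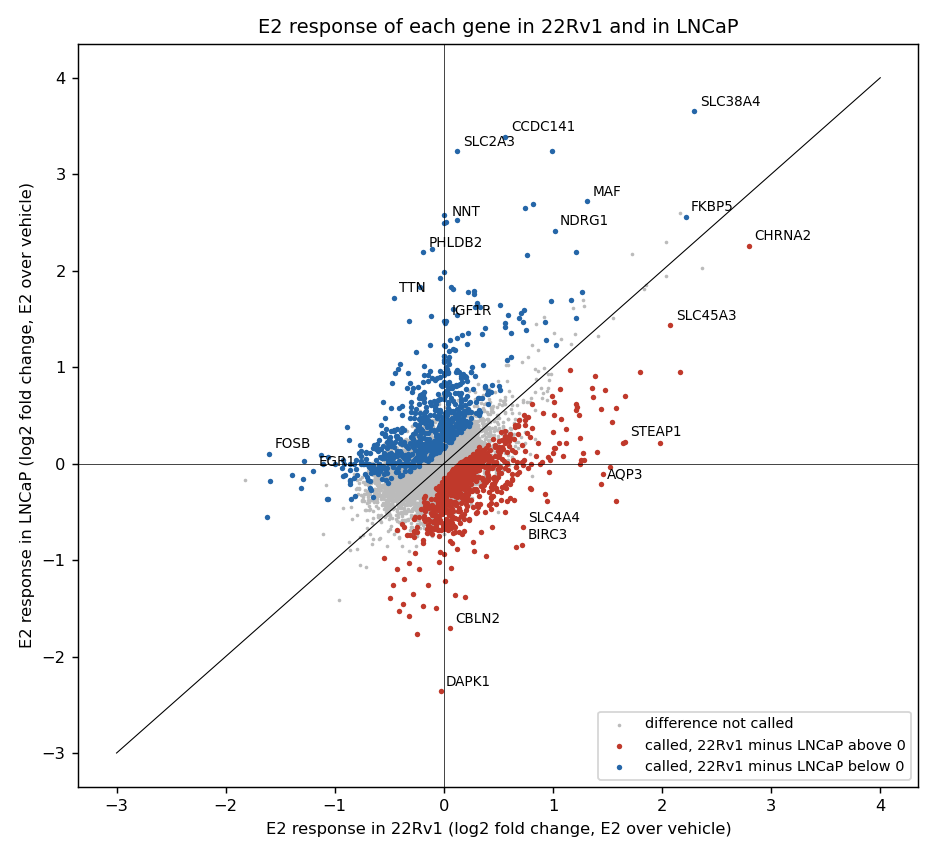
Log2 E2 response of each tested gene in 22Rv1 (horizontal axis) and in LNCaP (vertical axis), 1 point per gene, with the line of equal response. Of the 15358 genes, the 1117 called above 0 lie right of the line (red), the 704 called below 0 left of it (blue), and many called genes lie along an axis, where the response of 1 line was near 0.

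The 1821 genes fell into classes by the calls within each line. The response was called in 22Rv1 alone for 526 genes that rose and 219 that fell, and in LNCaP alone for 302 that rose and 329 that fell. Here and below, a gene said to change in 1 line alone was not called in the other, where a smaller change may exist. In opposite directions, 96 genes rose in 22Rv1 and fell in LNCaP, and 48 fell in 22Rv1 and rose in LNCaP. Among genes that rose in both lines, 76 rose more in 22Rv1 and 109 more in LNCaP. Genes that fell in both numbered 9 with the larger fall in 22Rv1 and 34 with the larger fall in LNCaP, and the remaining 73 were called in neither line. Both lines expressed most of the 1821 genes: 1573 averaged at least 1 CPM in each line, 117 were under 1 CPM in 22Rv1 and 147 under 1 CPM in LNCaP. This was so for most tested genes: 12905 of 15358 averaged at least 1 CPM in each line. Of those, 12.2% were called, close to the 11.9% of all genes. The starting levels nevertheless differed for nearly every gene, since the vehicle libraries of the lines differed for 12986 of 15358 genes (84.6%), with 6292 higher in 22Rv1 (41%) and 6694 lower (43.6%), and for 1626 of the 1821.

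Steroid receptors and their partner factors were described first. ESR2, the beta receptor for E2, had 2.29, 1.97 and 1.68 CPM in 22Rv1 with E2, against 2.04, 2.601 and 2.29 CPM in 22Rv1 with vehicle, and 1.86, 1.95 and 1.56 CPM in LNCaP with E2, against 2.26, 2.57 and 1.65 CPM in LNCaP with vehicle. Its groups overlapped, and its difference of 0.02 ± 0.20 did not pass (adjusted p = 0.963), with a 95% interval of -0.40 to 0.44. NR3C1, the glucocorticoid receptor, had 20.9, 21.9 and 24.4 CPM in 22Rv1 with E2, against 24.3, 24.6 and 22.8 CPM in 22Rv1 with vehicle. In LNCaP it reached at most 0.435 CPM with or without E2, so a fall there would be hard to detect. FOXA1, a factor that opens chromatin for steroid receptors, did not pass in the difference (0.11 ± 0.05, adjusted p = 0.168, 95% interval 0.01 to 0.21). HOXB13, a homeobox factor of the prostate, passed, with 0.27 ± 0.06 (adjusted p = 0.00716): its effect was 0.10 ± 0.04 in 22Rv1, not called, and -0.17 ± 0.04 in LNCaP, called. In bulk RNA, a lower level can come from fewer cells that express a gene or from less RNA per cell, and these libraries cannot tell them apart.

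Genes known to be induced by androgens mostly rose in both lines and more steeply in LNCaP. Of 47 tested, 35 rose (74.5%, against 21.1% of all genes) and 1 fell in 22Rv1, with a median response of 0.62. In LNCaP 43 rose (91.5%, against 10.5%) and 1 fell, with a median of 0.82. The 1 fall in 22Rv1 was lost with cyclic loess, without any 1 library of LNCaP, and without 22Rv1 vehicle 1, vehicle 2, E2 1 or E2 2. In the difference, 9 were called above 0 (19.1%, against 7.27% of all genes) and 27 below (57.4%, against 4.58%). The median was -0.34, against 0.034 over all genes. Some members were taken from earlier results of these data, so the direction of the list is not independent evidence.

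The kallikreins stood among the 9. KLK3 had 20.7, 22.3 and 16.3 CPM in 22Rv1 with E2, against 11.4, 9.04 and 8.28 CPM in 22Rv1 with vehicle. In LNCaP the same gene had 1556.5, 1561 and 1624 CPM with E2, against 1111, 1079.7 and 1153 CPM with vehicle. E2 libraries were above vehicle libraries in both lines, from a far lower starting level in 22Rv1. The response was 1.01 ± 0.09 in 22Rv1 and 0.50 ± 0.09 in LNCaP, and the difference 0.50 ± 0.13 (adjusted p = 0.0145). KLK2 and KLK4, kallikreins beside KLK3 on chromosome 19, showed differences of 0.18 ± 0.05 (adjusted p = 0.0274) and 0.28 ± 0.05 (adjusted p = 0.000778). The call of KLK2 was lost with cyclic loess (adjusted p = 0.167), total-read scaling, a pseudocount of 2, a replicate block or 1 fit of all 54 libraries. It was also lost without both vehicle libraries that stood apart, or without 1 of LNCaP vehicle 3, LNCaP E2 1, LNCaP E2 2, 22Rv1 vehicle 2 or 22Rv1 E2 2. KLK2 and KLK3 are close in sequence, so that reads may be shared between them. The promoter of KLK3 (RefSeq, GRCh38.p14, chr19:50854665-50854964, plus strand, 250 bases before to 50 after the start) is shown because its androgen response element is a textbook one; capitals mark AGAACA, a half-site of steroid response elements, 170 bases before the start.
KLK3: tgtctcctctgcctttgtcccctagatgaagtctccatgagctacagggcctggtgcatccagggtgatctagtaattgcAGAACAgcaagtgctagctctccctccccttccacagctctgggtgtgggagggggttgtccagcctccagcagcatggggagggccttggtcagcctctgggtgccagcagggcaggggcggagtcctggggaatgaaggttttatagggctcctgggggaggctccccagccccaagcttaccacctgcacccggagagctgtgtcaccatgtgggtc

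Genes of the STEAP family of membrane metalloreductases moved in different ways. STEAP1 had 71.2, 72.1 and 67.3 CPM in 22Rv1 with E2, against 21.3, 21.5 and 22.7 CPM in 22Rv1 with vehicle. In LNCaP, STEAP1 had 205, 215 and 211 CPM with E2, against 173, 187 and 179 CPM with vehicle. Every E2 library was above every vehicle library in both lines, but the step was far larger in 22Rv1, at 1.66 ± 0.04 against 0.23 ± 0.04 in LNCaP, a difference of 1.43 ± 0.06 (adjusted p = 5.80e-12). Its neighbour STEAP2 followed with 0.90 ± 0.06 (adjusted p = 2.54e-09). STEAP4, which belongs to the same family, went the other way: it had 0.672, 1.01 and 1.13 CPM in 22Rv1 with E2, against 0.144, 0.108 and 0.428 CPM in 22Rv1 with vehicle, and 6.395, 6.95 and 8.25 CPM in LNCaP with E2, against 0.29, 0.204 and 0.462 CPM in LNCaP with vehicle, and the difference was -2.24 ± 0.24 (adjusted p = 2.22e-06).

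Other induced genes with a larger response in 22Rv1 were MBOAT2, an acyltransferase of membrane lipids (1.21 ± 0.06, adjusted p = 5.49e-11), SLC45A3 and CHRNA2. SLC45A3 (prostein, a prostate membrane protein) had 179, 175 and 156 CPM in 22Rv1 with E2, against 39.04, 38.1 and 42.9 CPM in 22Rv1 with vehicle. In LNCaP it had 573, 555 and 550.0 CPM with E2, against 202, 209 and 209 CPM with vehicle. The E2 libraries of LNCaP were the highest of the 4 groups, while the response was 2.07 ± 0.05 in 22Rv1 and 1.43 ± 0.05 in LNCaP, with a difference of 0.64 ± 0.07 (adjusted p = 1.71e-06). CHRNA2, a nicotinic acetylcholine receptor subunit, responded by 2.79 ± 0.06 in 22Rv1 and 2.26 ± 0.06 in LNCaP (0.53 ± 0.08, adjusted p = 0.000216).

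**Figure D2:**
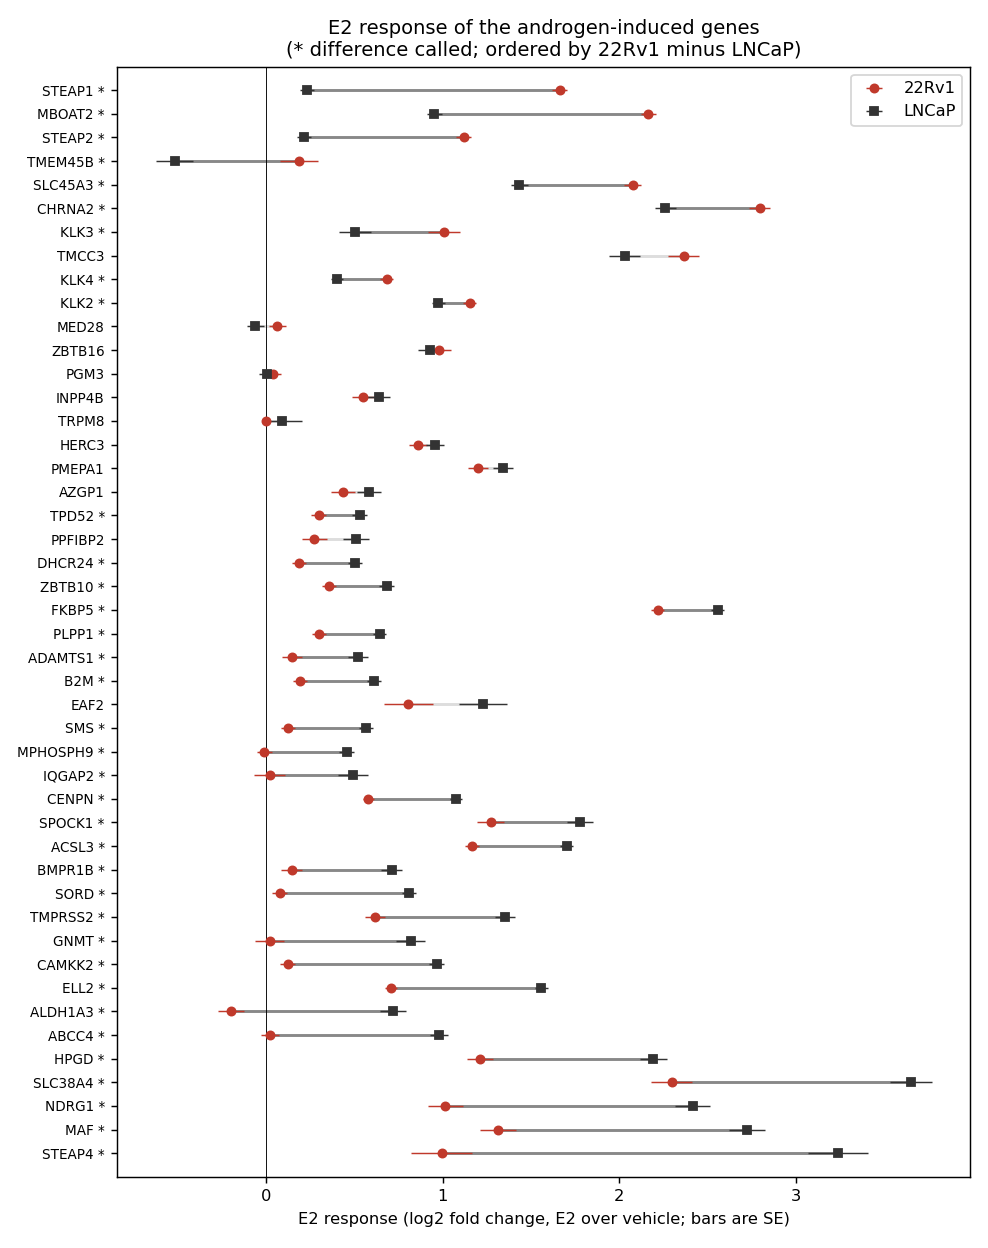
Log2 E2 response of 46 of the 47 androgen-induced genes tested, in 22Rv1 (red circles) and LNCaP (black squares), with standard errors, ordered by the difference; asterisks mark called differences. STEAP1, MBOAT2, STEAP2 and 6 others were called with the larger response in 22Rv1, and 26 of those plotted, down to STEAP4, were called with the larger response in LNCaP.

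MAF, a leucine zipper transcription factor, was among those that rose more in LNCaP. It had 2.91, 3.15 and 2.88 CPM in 22Rv1 with E2, against 1.03, 1.13 and 0.599 CPM in 22Rv1 with vehicle, and 362, 350.4 and 342 CPM in LNCaP with E2, against 56.04, 50.9 and 51.5 CPM in LNCaP with vehicle. The responses were 1.31 ± 0.10 in 22Rv1 and 2.72 ± 0.10 in LNCaP, and the difference -1.41 ± 0.14 (adjusted p = 1.05e-06). NDRG1, a stress- and androgen-induced gene that restrains metastasis, had 91.7, 92.01 and 84.3 CPM in 22Rv1 with E2, against 40.7, 43.999 and 47.3 CPM in 22Rv1 with vehicle. In LNCaP, NDRG1 had 288, 273 and 259.7 CPM with E2, against 47.2, 42.5 and 65.3 CPM with vehicle, and its difference was -1.40 ± 0.14 (adjusted p = 6.94e-07). The vehicle libraries of the lines overlapped for NDRG1, and the E2 libraries did not. SLC38A4, an amino acid transporter, also rose more in LNCaP: it had 19.8, 20.7 and 20.8 CPM in 22Rv1 with E2, against 3.65, 4.05 and 3.57 CPM in 22Rv1 with vehicle, and 31.6, 30.1 and 29.5 CPM in LNCaP with E2, against 2.44, 2.14 and 1.41 CPM in LNCaP with vehicle (-1.35 ± 0.17, adjusted p = 1.04e-05).

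Well-known targets gave smaller differences. TMPRSS2, a protease whose promoter drives ETS gene fusions, rose by 0.62 ± 0.06 in 22Rv1 and 1.35 ± 0.06 in LNCaP (-0.73 ± 0.08, adjusted p = 1.98e-06). ELL2, an elongation factor, differed by -0.85 ± 0.05 (adjusted p = 6.50e-10). FKBP5, a chaperone of steroid receptors induced by androgens and glucocorticoids, had 755, 718 and 762 CPM in 22Rv1 with E2, against 160.2, 158 and 161 CPM in 22Rv1 with vehicle. In LNCaP, FKBP5 had 1029.9, 1016 and 1015 CPM with E2, against 183, 168 and 168 CPM with vehicle. Its responses of 2.22 ± 0.04 in 22Rv1 and 2.56 ± 0.04 in LNCaP differed by -0.34 ± 0.05 (adjusted p = 0.000182). PMEPA1, an inhibitor of TGF-beta signalling, did not pass (-0.14 ± 0.08, adjusted p = 0.292, 95% interval -0.32 to 0.03).

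Most androgen-repressed genes fell in LNCaP. Of 23 tested, 19 fell there (82.6%, against 8.87% of all genes) and 7 fell in 22Rv1 (30.4%, against 11.3%). Rises numbered 2 in each line, and the median responses were -0.11 in 22Rv1 and -0.73 in LNCaP. In the difference, 14 were called above 0 (60.9%, against 7.27% of all genes) and 3 below (13%, against 4.58%), with a median of 0.55. Members of this list too were taken from earlier results of these data. DAPK1, a kinase that promotes cell death, had 4.13, 4.82 and 3.53 CPM in 22Rv1 with E2, against 4.01, 4.23 and 4.45 CPM in 22Rv1 with vehicle. In LNCaP, DAPK1 had 1.21, 1.13 and 1.47 CPM with E2, against 8.93, 8.86 and 7.896 CPM with vehicle. The groups overlapped in 22Rv1 and were far apart in LNCaP, and the difference of 2.33 ± 0.17 (adjusted p = 9.61e-09) was the largest above 0 of any gene named here. CBLN2, a secreted synapse organiser, had 165, 167 and 152.4 CPM in 22Rv1 with E2, against 154, 158 and 153 CPM in 22Rv1 with vehicle. In LNCaP, CBLN2 had 5.72, 5.84 and 6.69 CPM with E2, against 19.03, 21.3 and 22.7 CPM with vehicle, for a difference of 1.76 ± 0.09 (adjusted p = 5.49e-11). LRRN1, a neuronal leucine-rich repeat protein, fell in both lines and further in LNCaP (1.26 ± 0.14, adjusted p = 2.33e-06). CAMK2N1, an inhibitor of CaM kinase II, fell in LNCaP alone (1.23 ± 0.11, adjusted p = 1.42e-07).

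Genes shared with the glucocorticoid receptor rose alike in number, 11 of 16 in 22Rv1 and 11 of 16 in LNCaP (68.8%), with 1 fall in each. Of all genes, 21.1% rose in 22Rv1 and 10.5% in LNCaP. Their differences in this list split evenly, with 6 above 0 (37.5%, against 7.27% of all genes) and 6 below (37.5%, against 4.58%). SGK1, a survival kinase, had 1.02, 1.05 and 1.39 CPM in 22Rv1 with E2, against 0.361, 0.477 and 0.471 CPM in 22Rv1 with vehicle. In LNCaP it had 20.4, 22.3 and 21.7 CPM with E2, against 2.92, 2.24 and 3.72 CPM with vehicle, and the difference was -1.87 ± 0.20 (adjusted p = 1.64e-06). The low level of SGK1 in 22Rv1 means that the added 0.5 CPM understates its rise there. KLF9, a zinc finger factor, went the other way, with 24.5, 25.1 and 22.5 CPM in 22Rv1 with E2, against 9.33, 10.1 and 9.99 CPM in 22Rv1 with vehicle, and 97.8, 97.9 and 93.5 CPM in LNCaP with E2, against 79.5, 78.9 and 82.3 CPM in LNCaP with vehicle (0.99 ± 0.07, adjusted p = 9.61e-09). ERRFI1, a feedback inhibitor of EGFR, rose in both lines and differed by -0.30 ± 0.06 (adjusted p = 0.0039).

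Genes known to be activated by estrogen receptors in breast cells moved both ways in each line. Of 20 tested, 9 were called in 22Rv1 (45%, against 32.4% of all genes), 9 in LNCaP (45%, against 19.3%) and 5 in the difference (25%, against 11.9%). Among them 7 rose and 2 fell in 22Rv1, 3 rose and 6 fell in LNCaP, and 3 were above 0 and 2 below in the difference. The 7 rises in 22Rv1 became 4 with total-read scaling and 3 with cyclic loess, which gave 1 fall there. In the difference, 5 were above 0 without 22Rv1 vehicle 3. GREB1, a target of ESR1, had 11.4, 11.997 and 11.998 CPM in 22Rv1 with E2, against 6.899, 6.98 and 7.49 CPM in 22Rv1 with vehicle. In LNCaP, GREB1 had 50.5, 48.7 and 56.1 CPM with E2, against 20.1, 16.3 and 17.3 CPM with vehicle, and the difference was -0.82 ± 0.11 (adjusted p = 2.82e-05). CA12, a carbonic anhydrase, rose in 22Rv1 (0.43 ± 0.06) and fell in LNCaP (-0.34 ± 0.06), with a difference of 0.78 ± 0.09 (adjusted p = 2.54e-06). MYB, a proto-oncogene, fell in LNCaP alone (0.66 ± 0.12, adjusted p = 0.00114). PGR and TFF1, the standard readouts of estrogen action in breast cells, did not reach 1 CPM in 3 libraries and were not tested.

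Several of the largest differences lay outside these lists. NNT, a mitochondrial enzyme that makes NADPH, had 48.9, 51.5 and 51.1 CPM in 22Rv1 with E2, against 48.99, 51.5 and 48.9 CPM in 22Rv1 with vehicle. In LNCaP, NNT had 4.64, 4.72 and 5.51 CPM with E2, against 0.476, 0.357 and 0.55 CPM with vehicle. E2 and vehicle libraries overlapped in 22Rv1, with a response of 0.02 ± 0.09 (adjusted p = 0.886). In LNCaP they were far apart, yet all below 22Rv1, and the difference was -2.49 ± 0.12 (adjusted p = 5.49e-11). PHLDB2, a scaffold at the cell cortex, had 62.6, 61.7 and 63.4 CPM in 22Rv1 with E2, against 71.8, 70.7 and 71.6 CPM in 22Rv1 with vehicle. In LNCaP, PHLDB2 had 5.03, 5.79 and 4.73 CPM with E2, against 0.973, 0.509 and 0.792 CPM with vehicle (-2.38 ± 0.15, adjusted p = 1.17e-09). Both genes were far higher in 22Rv1 than in LNCaP, with E2 and with vehicle. CSGALNACT1, an enzyme of chondroitin sulfate synthesis, rose in LNCaP alone (-2.05 ± 0.19, adjusted p = 3.37e-07), as did TMEM121B (-1.42 ± 0.19, adjusted p = 3.91e-05).

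On the other side, AQP3, a water and glycerol channel, had 65.8, 61.6 and 63.1 CPM in 22Rv1 with E2, against 22.1, 23.9 and 22.98 CPM in 22Rv1 with vehicle. In LNCaP, AQP3 had 8.33, 8.44 and 8.57 CPM with E2, against 7.83, 10.9 and 11.1 CPM with vehicle. E2 and vehicle libraries overlapped in LNCaP and not in 22Rv1, and the difference was 1.65 ± 0.13 (adjusted p = 2.79e-08). C9orf152 rose in 22Rv1 by 1.64 ± 0.08 and differed by 1.43 ± 0.11 (adjusted p = 2.16e-08). MAP1B, a microtubule protein of neurons, rose in 22Rv1 (0.93 ± 0.07) and fell in LNCaP (-0.32 ± 0.07), with a difference of 1.25 ± 0.10 (adjusted p = 3.02e-08). COLCA1 did the same (1.33 ± 0.08, adjusted p = 6.31e-10); it shares its locus with the gene POU2AF3, so reads may be shared. Of the genes named here, STEAP1, NNT, TTN, IGF1R, MAF, FKBP5, ELL2, TP53INP1, SESN1, VLDLR, CCNE2, NFKB1, EGFR and ERBB2 also overlap another listed gene in RefSeq. Whether counting used the strand is not stated, so a part of their reads may belong to the neighbour.

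**Figure D3:**
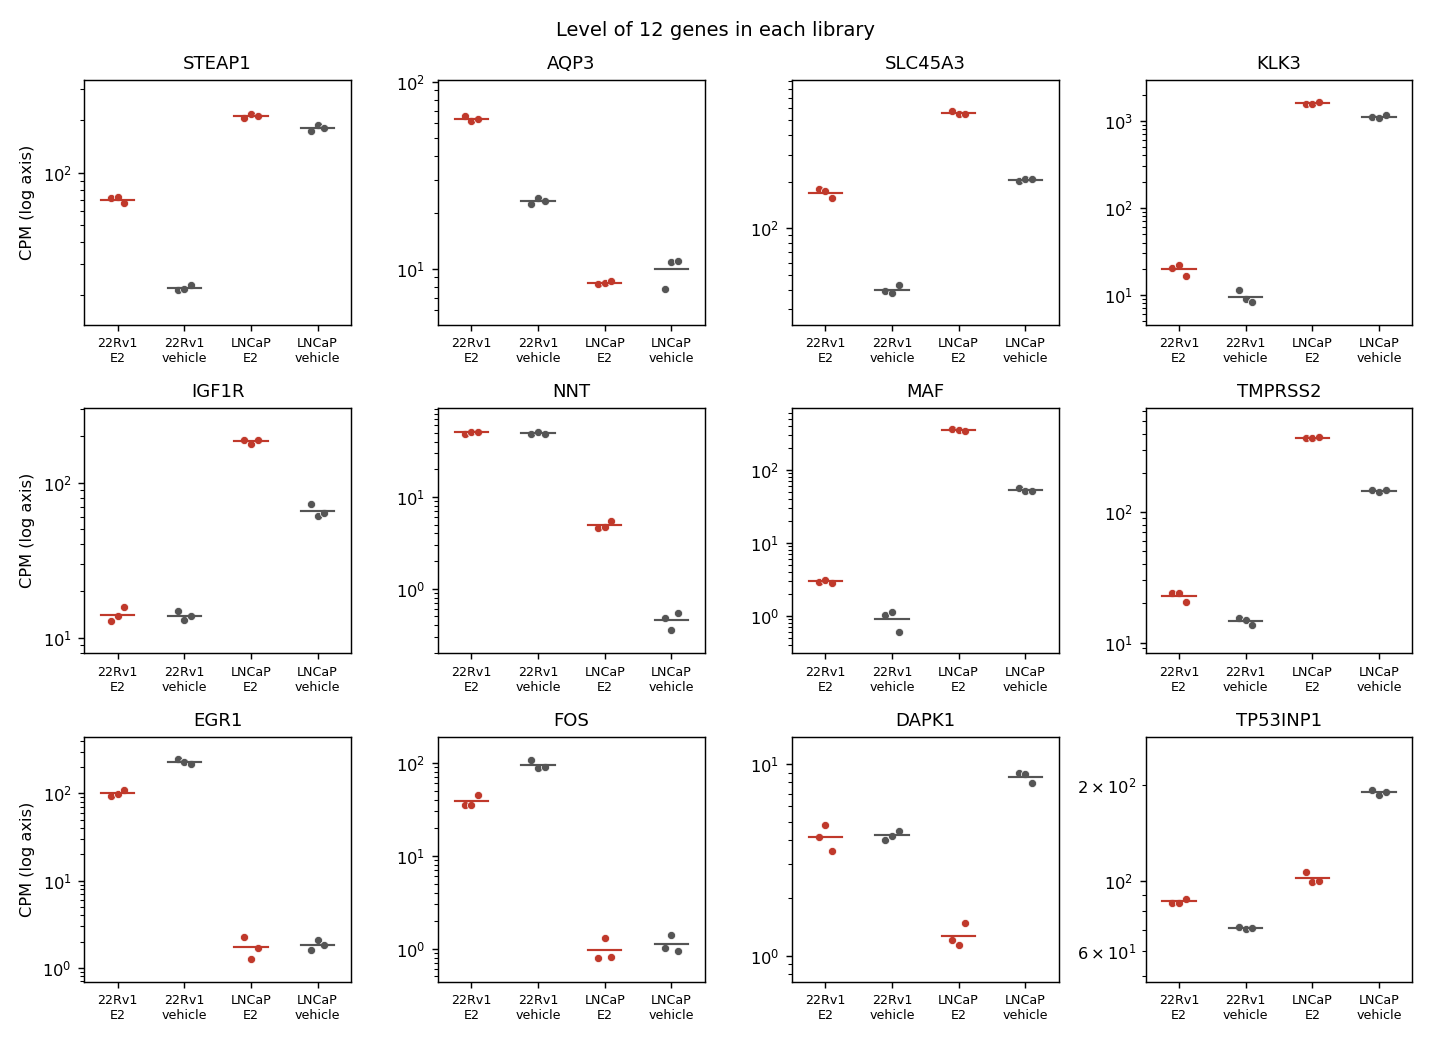
Level of 12 genes in CPM (log axis) in each of the 12 libraries, with 1 point per library and a bar at the mean; E2 is red and vehicle grey. STEAP1 and AQP3 step up with E2 in 22Rv1, IGF1R and NNT in LNCaP; EGR1 and FOS lie far higher in 22Rv1 and fall there, and DAPK1 and TP53INP1 fall in LNCaP.

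Opposite responses were called for 144 genes. BIRC3, an inhibitor of apoptosis, had 1.12, 1.41 and 1.63 CPM in 22Rv1 with E2, against 0.601, 0.65 and 0.663 CPM in 22Rv1 with vehicle. In LNCaP, BIRC3 had 9.2003, 9.34 and 8.62 CPM with E2, against 18.3, 14.7 and 17.001 CPM with vehicle, and the difference was 1.56 ± 0.16 (adjusted p = 1.58e-06). PHLDA1, a gene of growth factor signalling, had 9.78, 9.73 and 10.8 CPM in 22Rv1 with E2, against 6.66, 5.85 and 6.03 CPM in 22Rv1 with vehicle, and 1.17, 1.304 and 1.15 CPM in LNCaP with E2, against 2.69, 2.32 and 2.79 CPM in LNCaP with vehicle (1.53 ± 0.15, adjusted p = 5.55e-07). In each of these genes E2 and vehicle libraries were separate in both lines. SLC4A4, a sodium bicarbonate transporter, and COLEC12, a scavenger receptor, also rose in 22Rv1 and fell in LNCaP, with differences of 1.38 ± 0.10 (adjusted p = 7.77e-09) and 1.34 ± 0.09 (adjusted p = 4.20e-09). The largest opposite response the other way was that of TTN (titin, the giant muscle protein), with 4.73, 5.14 and 6.24 CPM in 22Rv1 with E2, against 9.18, 6.199 and 7.45 CPM in 22Rv1 with vehicle, and 79.9, 84.6 and 82.2 CPM in LNCaP with E2, against 29.2, 24.1 and 21.2 CPM in LNCaP with vehicle (-2.18 ± 0.17, adjusted p = 2.43e-08). The libraries of 22Rv1 overlapped for TTN, although its fall there was called. MAK, a kinase of male germ cells, differed by -1.44 ± 0.16 (adjusted p = 2.01e-06). CADM2, a cell adhesion protein, differed by -1.41 ± 0.18 (adjusted p = 2.02e-05), and MDGA1, another adhesion protein, by -1.38 ± 0.21 (adjusted p = 0.000156).

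Some called genes averaged under 1 CPM in 1 line, where a fall in particular is hard to detect. F3 (tissue factor) had 5.85, 6.103 and 7.13 CPM in 22Rv1 with E2, against 1.06, 1.45 and 1.198 CPM in 22Rv1 with vehicle, and in LNCaP at most 0.18 CPM (1.77 ± 0.19, adjusted p = 1.85e-06, and 0.698 with voom weights). CA13, a carbonic anhydrase, had 5.77, 6.48 and 5.88 CPM in 22Rv1 with E2, against 1.51, 1.63 and 1.95 CPM in 22Rv1 with vehicle, and 0.987, 0.556 and 0.483 CPM in LNCaP with E2, against 0.559, 1.605 and 1.06 CPM in LNCaP with vehicle (1.97 ± 0.27, adjusted p = 5.00e-05). SYNPO2, an actin-binding protein, rose in 22Rv1 and had at most 0.306 CPM in LNCaP (1.56 ± 0.19, adjusted p = 9.44e-06). SLC30A10, a manganese exporter, fell in LNCaP and reached at most 0.357 CPM in 22Rv1 (1.58 ± 0.23, adjusted p = 0.000112). SLC2A3, a glucose transporter, had 8.12, 8.9999 and 10.2 CPM in LNCaP with E2, against 0.828, 0.28 and 0.506 CPM in LNCaP with vehicle, and at most 0.096 CPM in 22Rv1 (-3.11 ± 0.23, adjusted p = 1.31e-08, and 0.108 with voom weights). CCDC141 had 43.4, 41.9 and 37.8 CPM in LNCaP with E2, against 4.43, 3.67 and 2.51 CPM in LNCaP with vehicle. In 22Rv1 it had 0 reads in all vehicle libraries and 0.149, 0.168 and 0.432 CPM with E2, so its difference of -2.83 ± 0.23 (adjusted p = 4.45e-08) holds only on this scale, and it turned to 0.81 with voom weights. SNAI2 (Slug, a regulator of epithelial plasticity) had 22.1, 20.5 and 20.2 CPM in LNCaP with E2, against 3.397, 3.03 and 3.52 CPM in LNCaP with vehicle, and 0 reads in all 6 libraries of 22Rv1, as had PNLIP, a lipase. The differences of -2.49 (adjusted p = 1.69e-09) and -2.58 (adjusted p = 8.05e-09) are thus the LNCaP responses alone.

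Insulin-like growth factor (IGF) signalling runs from the ligand IGF1 through the receptor IGF1R to the adaptors IRS1 and IRS2. The ligand rose more in 22Rv1: IGF1 had 34.2, 33.6 and 30.7 CPM in 22Rv1 with E2, against 11.3, 11.1 and 12.1 CPM in 22Rv1 with vehicle, and 6.01, 6.01 and 6.82 CPM in LNCaP with E2, against 3.89, 3.46 and 3.12 CPM in LNCaP with vehicle (0.71 ± 0.12, adjusted p = 0.000695). IGF1R had 12.7, 13.8 and 15.8 CPM in 22Rv1 with E2, against 14.9, 12.98 and 13.8 CPM in 22Rv1 with vehicle. In LNCaP, IGF1R had 187, 177 and 188 CPM with E2, against 73.01, 61.2 and 63.4 CPM with vehicle. The groups overlapped in 22Rv1 and were wide apart in LNCaP, a difference of -1.46 ± 0.10 (adjusted p = 7.53e-09). Both adaptors behaved as the receptor did, with differences of -0.91 ± 0.07 for IRS2 (adjusted p = 1.89e-08) and -0.71 ± 0.09 for IRS1 (adjusted p = 1.41e-05). Of the 9 genes of this axis, 3 were above 0 (33.3%, against 7.27% of all genes) and 3 below (33.3%, against 4.58%). Among 9 ErbB signalling genes, 1 was above 0 (11.1%) and 2 below (22.2%). The receptor EGFR fell in 22Rv1 and rose in LNCaP (-0.59 ± 0.07, adjusted p = 3.78e-06), and ERBB2 did the reverse (0.51 ± 0.06, adjusted p = 5.03e-06).

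Immediate early genes, which growth signals switch on within minutes through serum response factor and its partners, fell in 22Rv1. Of 22 tested, 1 rose (4.55%, against 21.1% of all genes) and 12 fell (54.5%, against 11.3%) in 22Rv1. In LNCaP 3 rose (13.6%, against 10.5%) and 2 fell (9.09%, against 8.87%), close to the shares of all genes. There 5 fell with total-read scaling and 4 with cyclic loess. In the difference 1 was above 0 (4.55%, against 7.27%) and 9 below (40.9%, against 4.58%). EGR1, a zinc finger factor, had 92.1, 98.5 and 110.2 CPM in 22Rv1 with E2, against 245, 230.4 and 216 CPM in 22Rv1 with vehicle. In LNCaP, EGR1 had 2.27, 1.26 and 1.68 CPM with E2, against 1.59, 2.06 and 1.83 CPM with vehicle. FOS, a subunit of AP-1, had 35.2, 35.3 and 44.8 CPM in 22Rv1 with E2, against 107, 88.2 and 89.8 CPM in 22Rv1 with vehicle, and 0.785, 1.28 and 0.804 CPM in LNCaP with E2, against 1.01, 1.401 and 0.946 CPM in LNCaP with vehicle. E2 libraries lay below vehicle libraries in 22Rv1 and overlapped with them in LNCaP, where EGR1 reached at most 2.27 CPM and FOS 1.401 CPM. The differences were -1.12 ± 0.16 for EGR1 (adjusted p = 9.79e-05) and -1.14 ± 0.19 for FOS (adjusted p = 0.000349, and 0.139 with voom weights). FOSB and EGR3, of the same families, differed by -1.70 ± 0.24 (adjusted p = 5.65e-05) and -1.06 ± 0.21 (adjusted p = 0.00169). With voom weights neither passed (adjusted p = 0.0552 for FOSB and 0.469 for EGR3), nor did EGR3 with a pseudocount of 0.1. FOSL2, another AP-1 subunit, and NR4A1, an orphan nuclear receptor, reached the same sign by rising in LNCaP. FOSL2 had 112, 107 and 104 CPM in LNCaP with E2, against 47.8, 46.2 and 47.8 CPM in LNCaP with vehicle, while in 22Rv1 the groups overlapped (-1.08 ± 0.08, adjusted p = 9.33e-09). NR4A1 had 38.8, 38.4 and 41.4 CPM in LNCaP with E2, against 15.6, 15.6 and 16.6 CPM in LNCaP with vehicle (-1.23 ± 0.11, adjusted p = 2.88e-07).
The promoters of EGR1 and FOS (RefSeq, GRCh38.p14, plus strand, 250 bases before to 50 after the start) are shown because these genes fell together in 22Rv1; EGR1 is at chr5:138465229-138465528 and FOS at chr14:75278578-75278877. Capitals mark CArG boxes, which serum response factor binds. EGR1 has 2, starting 105 and 83 bases before the start, and FOS has none in these 300 bases.
EGR1: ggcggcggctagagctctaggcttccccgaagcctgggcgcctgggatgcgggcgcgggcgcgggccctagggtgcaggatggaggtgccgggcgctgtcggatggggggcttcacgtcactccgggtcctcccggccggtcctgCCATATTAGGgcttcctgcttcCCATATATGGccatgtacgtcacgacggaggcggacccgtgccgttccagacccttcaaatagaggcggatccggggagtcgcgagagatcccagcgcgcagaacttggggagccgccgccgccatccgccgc
FOS: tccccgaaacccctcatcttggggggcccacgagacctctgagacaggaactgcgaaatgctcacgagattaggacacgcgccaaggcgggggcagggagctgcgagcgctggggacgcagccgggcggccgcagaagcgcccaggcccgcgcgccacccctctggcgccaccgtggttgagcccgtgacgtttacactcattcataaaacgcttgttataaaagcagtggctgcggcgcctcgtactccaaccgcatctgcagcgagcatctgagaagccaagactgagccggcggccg

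Across the promoters of 11821 tested genes, a CArG box was found in 1.02% and AGAACA in 9.16%, on either strand. Promoters of genes called above 0 held AGAACA in 9.78% of 900, and those of genes called below 0 in 10.3% of 515, close to the share of all. The full palindromic androgen response element, with a spacer of 3 bases, was in none, and the palindromic estrogen response element, spaced likewise, in 2 of the 11821. TGACTCA, the AP-1 site, was in 2.95% and TGACGTCA, the cAMP response element, in 3.16%.

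Most genes of the p53 pathway, which restrain growth after damage, fell in LNCaP. Of 20 p53 targets, 15 fell there (75%, against 8.87% of all genes) and 1 rose. In 22Rv1, 6 were called (30%, close to the 32.4% of all genes), of which 5 rose and 1 fell. In the difference, 12 were above 0 (60%, against 7.27% of all genes) and 0 below, with a median of 0.28. The 5 rises in 22Rv1 became 3 with total-read scaling, with cyclic loess, or without 22Rv1 vehicle 1, vehicle 2 or E2 2. The 1 fall there became 2 with total-read scaling or without LNCaP vehicle 3, and 0 without 22Rv1 vehicle 2, vehicle 3 or E2 2. TP53INP1, a p53-induced gene of autophagy and cell death, had 85.2, 85.03 and 87.7 CPM in 22Rv1 with E2, against 71.4, 70.5 and 70.9 CPM in 22Rv1 with vehicle. In LNCaP, TP53INP1 had 106, 98.9 and 99.7 CPM with E2, against 193, 186 and 191 CPM with vehicle, with a difference of 1.18 ± 0.05 (adjusted p = 9.76e-12); this gene and SESN1 also stand in the androgen-repressed list. CDKN1A (p21, a brake on the cell cycle) had 53.8, 52.9 and 50.9 CPM in 22Rv1 with E2, against 40.9, 43.5 and 44.1 CPM in 22Rv1 with vehicle, and 93.5, 90.9 and 87.96 CPM in LNCaP with E2, against 97.4, 105 and 106 CPM in LNCaP with vehicle (0.47 ± 0.06, adjusted p = 2.43e-05). SESN1 and SESN2, stress sensors that restrain mTORC1, differed by 0.65 ± 0.09 (adjusted p = 4.64e-05) and 0.41 ± 0.07 (adjusted p = 0.000663).

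Of 18 ATF4 targets, the amino acid stress response, 12 rose (66.7%, against 21.1% of all genes) and 0 fell in 22Rv1. In LNCaP 1 rose (5.56%, against 10.5%) and 6 fell (33.3%, against 8.87%). In the difference 11 were above 0 (61.1%, against 7.27%) and 1 below (5.56%, against 4.58%). The 11 became 7 with cyclic loess or without 22Rv1 vehicle 1. The 12 rises in 22Rv1 became 3 with total-read scaling, 4 with cyclic loess or without 22Rv1 E2 2, and 7 without 22Rv1 vehicle 1, and the 6 falls in LNCaP became 10 with total-read scaling. Without 22Rv1 vehicle 2, 1 fell in 22Rv1. SLC7A5, an importer of large neutral amino acids, had 202, 206 and 198 CPM in 22Rv1 with E2, against 177, 182 and 191 CPM in 22Rv1 with vehicle, and 3.905, 3.72 and 3.38 CPM in LNCaP with E2, against 6.65, 6.04 and 6.27 CPM in LNCaP with vehicle (0.85 ± 0.08, adjusted p = 2.61e-07). DDIT4, an mTORC1 inhibitor, rose in 22Rv1 alone (0.65 ± 0.10, adjusted p = 0.00016). VLDLR, a lipoprotein receptor, was the 1 below 0 and rose in LNCaP (-1.20 ± 0.13, adjusted p = 1.46e-06). Among 8 NF-kappaB genes, 5 were above 0 (62.5%, against 7.27% of all genes) and 0 below. NFKB1, a subunit of the factor, had 27.9, 29.4 and 27.8 CPM in 22Rv1 with E2, against 25.9, 27.6 and 26.1 CPM in 22Rv1 with vehicle, and 66.4, 67.9 and 64.6 CPM in LNCaP with E2, against 106, 103 and 103 CPM in LNCaP with vehicle (0.74 ± 0.06, adjusted p = 4.20e-08), and its inhibitor NFKBIA rose in both lines, more in 22Rv1 (0.37 ± 0.06, adjusted p = 0.000469). Of 13 NRF2 targets of the oxidative stress response, 7 were above 0 (53.8%, against 7.27% of all genes) and 0 below. The 7 became 3 without LNCaP E2 3, and 4 with cyclic loess or without LNCaP E2 2, 22Rv1 vehicle 1 or 22Rv1 E2 1. Of 12 chaperones of steroid receptors, 5 were above 0 (41.7%) and 1, FKBP5, below (8.33%, against 4.58%). The 5 became 2 with cyclic loess, and 3 without 22Rv1 vehicle 1, vehicle 2, E2 1 or E2 3, or without LNCaP vehicle 2, vehicle 3, E2 1 or E2 3.

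Genes of G1/S and DNA replication rose in 22Rv1. Of 30 tested, 23 rose (76.7%, against 21.1% of all genes) and 0 fell in 22Rv1. In LNCaP 2 rose (6.67%, against 10.5%) and 2 fell (6.67%, against 8.87%). In the difference 12 were above 0 (40%, against 7.27%) and 0 below, and with cyclic loess 6 were above 0. The 23 rises in 22Rv1 became 15 with total-read scaling and 10 with cyclic loess. In LNCaP the 2 rises became 0 with total-read scaling and 1 without LNCaP E2 2, and the 2 falls became 0 without LNCaP vehicle 1, E2 1 or E2 3. CCNE2, a cyclin of S-phase entry, had 59.4, 62.8 and 63.1 CPM in 22Rv1 with E2, against 42.8, 46.3 and 43.8 CPM in 22Rv1 with vehicle, and 31.5, 35.3 and 34.3 CPM in LNCaP with E2, against 38.8, 36.4 and 37.3 CPM in LNCaP with vehicle (0.63 ± 0.07, adjusted p = 3.17e-06). PCNA, the sliding clamp of DNA polymerase, differed by 0.37 ± 0.05 (adjusted p = 6.35e-05) and RRM2, a ribonucleotide reductase subunit, by 0.22 ± 0.05 (adjusted p = 0.00488). Replication-dependent histone genes, whose copies share reads and are uncertain singly, rose in 30 of 35 cases in 22Rv1 (85.7%, against 21.1% of all genes). In LNCaP 1 rose (2.86%, against 10.5%). In the difference 15 were above 0 (42.9%, against 7.27%). The 15 became 7 without 22Rv1 vehicle 1 or 22Rv1 E2 1, 9 without LNCaP E2 3 and 26 without LNCaP vehicle 1. In LNCaP, 9 rose without LNCaP vehicle 3, and 2 without 22Rv1 vehicle 1 or E2 3. H2BC8 had 97.6, 96.5 and 92.05 CPM in 22Rv1 with E2, against 64.2, 73.3 and 73.9 CPM in 22Rv1 with vehicle, and 85.3, 84.7 and 86.2 CPM in LNCaP with E2, against 77.95, 86.3 and 88.3 CPM in LNCaP with vehicle (0.41 ± 0.07, adjusted p = 0.000695). H3C10 differed by 0.31 ± 0.06 (adjusted p = 0.00305).

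In 3 further lists at most 1 member was called in the difference. Of 18 genes of the unfolded protein response, 18 rose in 22Rv1 (100%, against 21.1% of all genes) and 16 in LNCaP (88.9%, against 10.5%). The medians were 0.25 in 22Rv1 and 0.28 in LNCaP. In the difference 0 were above 0 and 1 below (5.56%, against 4.58%), DNAJC3, a chaperone of the endoplasmic reticulum (-0.23 ± 0.05, adjusted p = 0.00774). Below 0 there were 3 with cyclic loess and 2 without LNCaP vehicle 3, and above 0 there was 1 without 22Rv1 vehicle 3 or E2 3. Of 49 cytosolic ribosomal protein genes, 27 rose (55.1%, against 21.1% of all genes) and 1 fell (2.04%, against 11.3%) in 22Rv1. None was called in LNCaP, against 19.3% of all genes, or in the difference, against 11.9%. The 27 rises became 2 with total-read scaling, 1 with cyclic loess, 7 without 22Rv1 vehicle 1 or E2 1 and 13 without 22Rv1 vehicle 2 or E2 2. In the difference 10 were above 0 without LNCaP vehicle 1, 12 without both vehicle libraries that stood apart, 4 without 22Rv1 E2 3 and 1 without 22Rv1 vehicle 2 or vehicle 3, and 5 rose in LNCaP without LNCaP vehicle 3. Of 13 mitochondrially encoded mRNAs, 10 fell in 22Rv1 (76.9%, against 11.3% of all genes) and 0 in LNCaP (against 8.87%). In the difference 1 was below 0 (7.69%, against 4.58%). It was ND4L, a complex I subunit that overlaps ND4 (-0.40 ± 0.11, adjusted p = 0.0253, and 0.17 in 1 fit of all 54 libraries). In the difference 6 were below 0 without 22Rv1 vehicle 3 or LNCaP vehicle 1, 10 without both, 3 without 22Rv1 E2 3, and 5 with cyclic loess. There were 0 without 22Rv1 vehicle 1, vehicle 2, E2 1 or E2 2, or without LNCaP vehicle 2 or E2 3. The 10 falls in 22Rv1 became 1 without 22Rv1 vehicle 2 or E2 2 and 5 without 22Rv1 vehicle 1, and 1 fell in LNCaP without LNCaP E2 3.

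**Figure D4:**
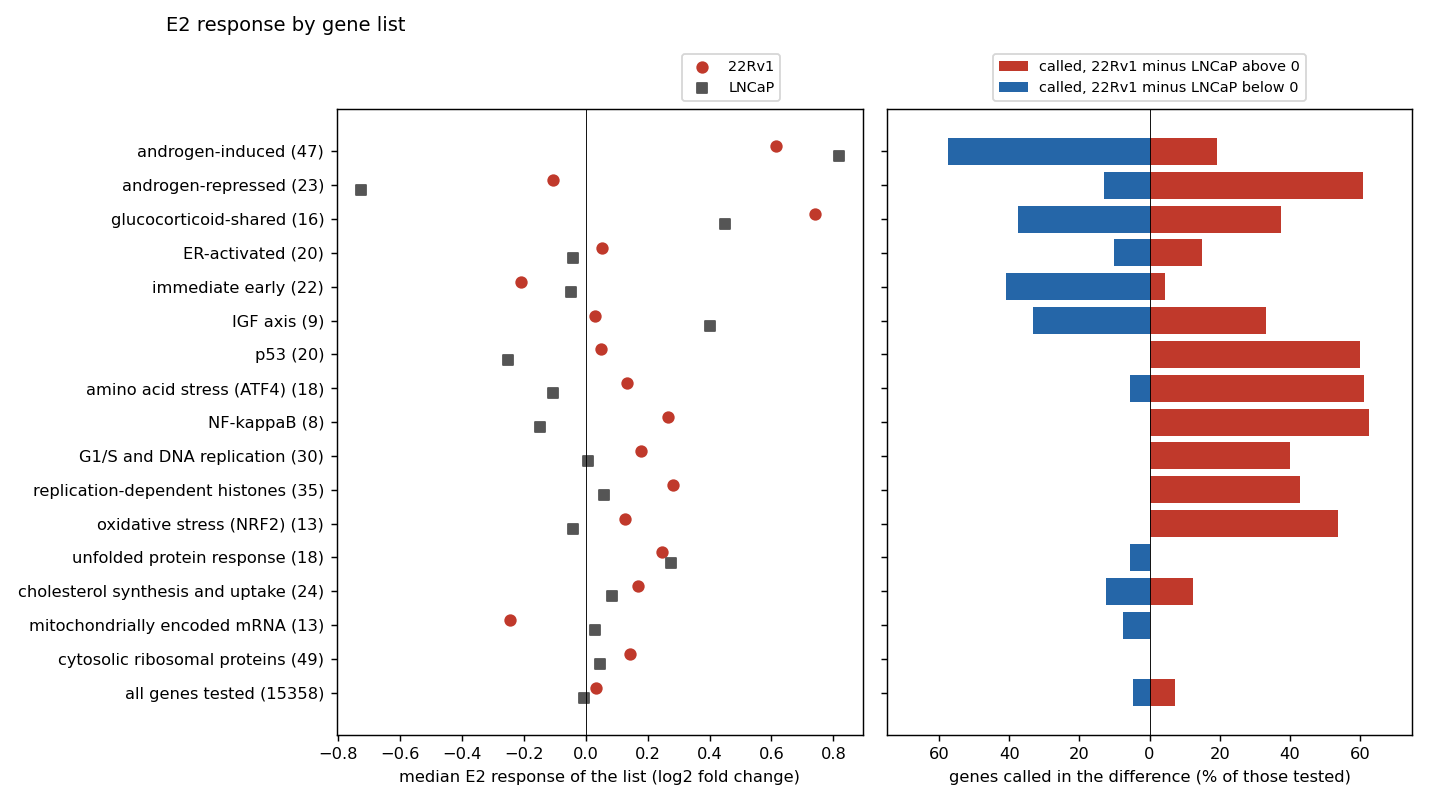
Left, median log2 E2 response of each gene list in 22Rv1 (red circles) and LNCaP (grey squares), with the number tested in brackets; right, share of each list called above 0 (red) or below 0 (blue) in 22Rv1 minus LNCaP. Androgen-induced and immediate early genes are called mostly below 0, and p53, ATF4, NF-kappaB and histone genes mostly above 0, beside 7.27% and 4.58% over all genes.

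A core of genes responded strongly in both lines. Responses of at least 1 on the log2 scale and in the same direction were called for 26 genes, all of which rose. For 11 of these the difference was called as well (against 11.9% of all genes), 2 above 0 (against 7.27%) and 9 below (against 4.58%). The 6 with the smallest differences were THSD7A, SLC26A3, FOXD4, DLX1, OTULINL and PGC, which lay between -0.07 and 0.10 and did not pass. OTULINL, a relative of the deubiquitinase OTULIN, had 18.9, 19.97 and 18.2 CPM in 22Rv1 with E2, against 6.39, 7.61 and 6.53 CPM in 22Rv1 with vehicle, and 56.997, 55.3 and 53.6 CPM in LNCaP with E2, against 24.2, 20.2 and 21.2 CPM in LNCaP with vehicle (0.09 ± 0.10, 95% interval -0.13 to 0.31). FOXD4, a forkhead gene with near-identical copies that may share its reads, had 24.9, 25.02 and 26.6 CPM in 22Rv1 with E2, against 9.45, 6.87 and 9.05 CPM in 22Rv1 with vehicle, and 28.8, 25.9 and 24.6 CPM in LNCaP with E2, against 9.59, 8.28 and 9.04 CPM in LNCaP with vehicle, with a 95% interval of -0.24 to 0.33. THSD7A, a membrane protein, DLX1, a homeobox gene, SLC26A3, a chloride exchanger, and PGC, a gastric protease precursor also made in the prostate, were under 1 CPM or near it in some vehicle groups. For these the pseudocount decides the size of the fold: with a pseudocount of 2 PGC was called at -0.50, and with 0.1 SLC26A3 was called at -1.47. With Enza present, SLC26A3 (0.70 ± 0.21, adjusted p = 0.0472) and FOXD4 (0.45 ± 0.12, adjusted p = 0.0271) were called above 0.

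The same difference was measured in other libraries of the 2 lines, all of which also held Enza: E2 with Enza over Enza in 22Rv1, minus the same in LNCaP. There 1157 of 15324 genes were called (7.55%), 565 above 0 (3.69%) and 592 below (3.86%). Of the 1789 genes called without Enza and tested with it, 1588 had the same sign (88.8%), 606 were called in the same direction (33.9%) and 15 in the opposite one. The share of the same sign among genes not called was not computed. Among the 13390 tested genes not called without Enza, 525 (3.92%) were called with it. Of the differences of 1 or more in size, 41 of 46 above 0 were called again in the same direction, and 55 of the 73 tested below 0. NNT, for example, had 45.6, 49.6 and 53.2 CPM in 22Rv1 with E2 and Enza, against 53.3, 52.7 and 51.2 CPM with Enza. In LNCaP, NNT had 1.97, 1.13 and 1.64 CPM with E2 and Enza, against 0.145, 0.134 and 0.0444 CPM with Enza. The difference was -1.84 ± 0.18 (adjusted p = 5.99e-07). STEAP1 gave 1.72 ± 0.07 (adjusted p = 6.05e-12), DAPK1 1.75 ± 0.17 (adjusted p = 7.80e-07) and IGF1R -1.64 ± 0.11 (adjusted p = 3.05e-09).

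Whether Enza altered the difference was tested in 1 fit of the 24 libraries, as the difference without Enza minus that with it, a test added after the data were seen. It called 186 of 15650 genes (1.19%), 125 above 0 and 61 below. Of the 47 androgen-induced genes, 14 were called above 0 (0.799% of all genes were) and 5 below (0.39% of all genes were). CHRNA2 (1.52 ± 0.15, adjusted p = 2.43e-07), TMPRSS2 (1.16 ± 0.12, adjusted p = 8.60e-07) and SLC45A3 (1.03 ± 0.11, adjusted p = 8.60e-07) were above 0, as were KLK2 (0.88 ± 0.09, adjusted p = 8.60e-07), KLK3 (0.71 ± 0.17, adjusted p = 0.0258) and KLK4 (0.46 ± 0.10, adjusted p = 0.0147). STEAP4 (-1.47 ± 0.33, adjusted p = 0.0147), NDRG1 (-0.89 ± 0.21, adjusted p = 0.0268), FKBP5 (-0.58 ± 0.12, adjusted p = 0.0048) and ELL2 (-0.48 ± 0.09, adjusted p = 0.00229) were members called below 0. For SLC45A3, CHRNA2 and KLK2 the difference was called above 0 without Enza and below 0 with it. Outside this list, GREB1 (1.03 ± 0.16, adjusted p = 0.000208), AQP3 (0.91 ± 0.22, adjusted p = 0.0329) and CA12 (0.56 ± 0.12, adjusted p = 0.0128) were above 0.

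**Figure D5:**
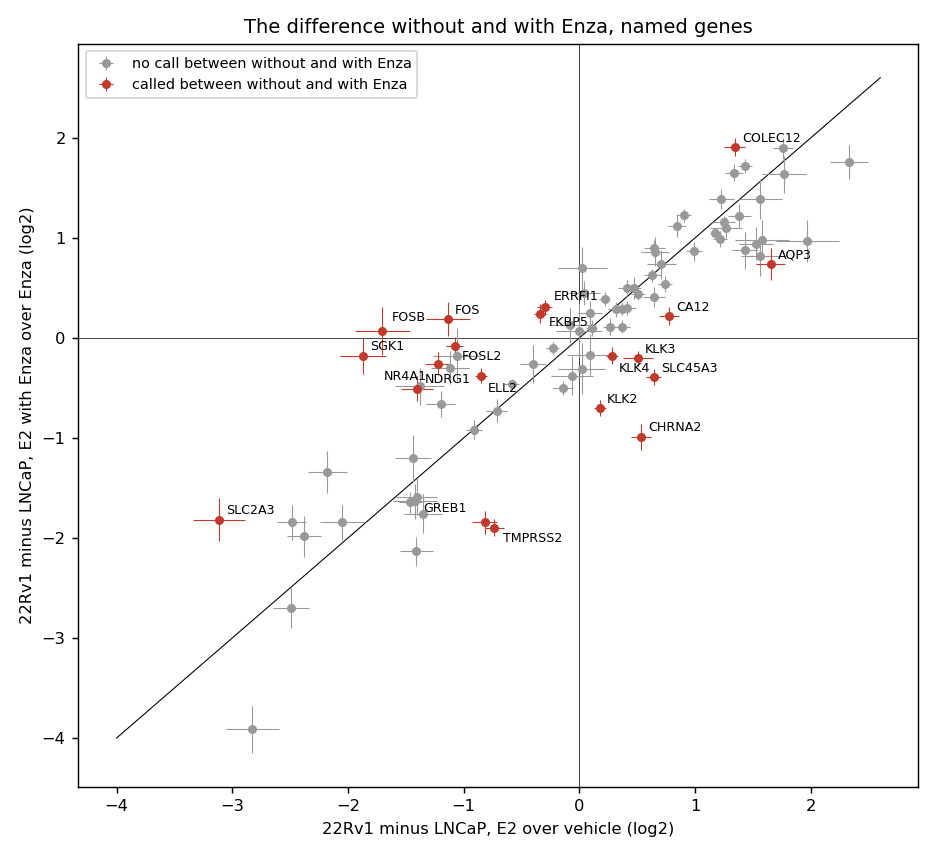
Difference in E2 response (22Rv1 minus LNCaP, log2, bars are standard errors) of named genes without Enza (horizontal axis) and with Enza (vertical axis), with the line of equality; red marks genes called in the difference between them. Most genes lie near the line; TMPRSS2, CHRNA2 and the kallikreins lie below it, and SLC2A3, SGK1, FOS and FOSB lie above it.

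Of 23 immediate early genes tested there, 1 was called above 0 and 4 below, and of 16 genes shared with the glucocorticoid receptor 2 above and 3 below. Of all genes, 0.799% were called above 0 and 0.39% below. FOS had 73.4, 59.6 and 57.3 CPM in 22Rv1 with E2 and Enza, against 65.8, 50.5 and 55.2 CPM with Enza, so that the groups overlapped there, and its difference did not pass (0.19 ± 0.17, adjusted p = 0.611). The change of its difference was -1.32 ± 0.27 (adjusted p = 0.00692), and that of FOSB -1.77 ± 0.37 (adjusted p = 0.0092). EGR1 changed by -0.82 ± 0.25 and did not pass (adjusted p = 0.13). SGK1 had 5.92, 5.09 and 4.78 CPM in LNCaP with E2 and Enza, against 4.06, 4.22 and 3.51 CPM with Enza (-1.69 ± 0.27, adjusted p = 0.000415). FOSL2 (-1.002 ± 0.12, adjusted p = 4.11e-06), NR4A1 (-0.97 ± 0.15, adjusted p = 0.000414) and SLC2A3 (-1.30 ± 0.31, adjusted p = 0.0292) likewise had a difference further below 0 without Enza. ERRFI1 and FKBP5 were below 0 without Enza, at -0.30 and -0.34, and at 0.30 (adjusted p = 0.00993) and 0.24 (adjusted p = 0.145) with it. Changes were also called for ERRFI1 (-0.60 ± 0.09, adjusted p = 0.000203), COLEC12 (-0.57 ± 0.13, adjusted p = 0.0155) and PNLIP (-1.48 ± 0.27, adjusted p = 0.00175). STEAP4 and PNLIP were not tested in the fit of the Enza libraries alone.

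C4-2, which derives from LNCaP and grows in castrated hosts, gives another line for the same dose and time, in a fit of its own; it was not tested against the others. C4-2 vehicle library 1 carries the cell line tag of 22Rv1 beside a C4-2 title and was kept as C4-2. Over all genes its lowest correlation with the other C4-2 vehicle libraries was 0.9976 and its highest with any 22Rv1 library 0.901. E2 changed 777 of 13631 genes there (5.7%), 394 up (2.89%) and 383 down (2.81%). NNT had 18.2, 17.97 and 15.9 CPM in C4-2 with E2, against 15.97, 16.2 and 16.02 CPM with vehicle, and did not pass (0.11 ± 0.07, adjusted p = 0.384). IGF1R rose by 0.82 ± 0.04 (adjusted p = 4.55e-09), beside 0.02 in 22Rv1 and 1.48 in LNCaP. MAF rose by 1.75 ± 0.11 (adjusted p = 2.24e-08) and STEAP1 by 0.31 ± 0.04 (adjusted p = 8.60e-05). DAPK1 fell to 8.65, 9.97 and 9.01 CPM with E2, against 13.3, 13.7 and 15.02 CPM with vehicle (-0.58 ± 0.08, adjusted p = 0.000243). AQP3 did not pass in C4-2 (-0.07 ± 0.04, adjusted p = 0.375). Without C4-2 vehicle library 1, 494 genes were called in C4-2, 294 up and 200 down. That left IGF1R at 0.81, MAF at 1.76, STEAP1 at 0.33 and DAPK1 at -0.61, all still called.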

How the data were processed

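RNA of 3 prostate cancer lines was sequenced from TruSeq Stranded Total RNA libraries. Per the submitters' processing notes, FastQC, Trimmomatic, featureCounts and edgeR were used with the build hg38; neither aligner nor versions nor counting strand are stated there. The deposited value is a score: per the values themselves, the authors took log2 of reads per 1000000 of an effective library size, with 0.5 reads added to each gene. They then rescaled each library. Whole reads were recovered for 100% of values (within 0.01 of a whole number), and the authors' library sizes with them. Since the deposited unit is not counts, limma was used in place of a count test.

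Reads were converted to CPM with the authors' effective library sizes. Genes that reached 1 CPM in 3 or more libraries were tested on log2(CPM + 0.5), a scale that understates changes of low genes, with limma 3.58.1 in R 4.3.3 (moderated test with an intensity trend, two-sided), in 1 fit of the 12 libraries with 8 residual degrees of freedom. Adjusted p-values are Benjamini-Hochberg over all genes tested, called under 0.05. The Enza and C4-2 libraries had fits of their own. The scripts were tested on simulated data. Alternatives were the pseudocount, the filter, TMM, total-read and cyclic loess scaling, voom weights, a replicate block, 1 fit of all libraries and each library left out. The test without against with Enza, the fits without both vehicle libraries that stood apart and that without C4-2 vehicle 1 were added after the data were seen.

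The comparison, its named genes and the gene lists were chosen with earlier results of these data known. Named were the 12 largest called differences each way at 1 CPM or more in both lines, the 4 largest each way among opposite responses and among genes under 1 CPM in 1 line, the 6 strong shared genes with the smallest differences, a fixed set of steroid genes, and up to 4 members per list by p. The KLK3 promoter was printed after its values were seen, in place of those of NNT and DAPK1, which held no motif searched. Of 19225 genes, 18917 matched RefSeq GRCh38.p14. Some genes of the fixed set and several markers are not reported here.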

Additional observations from a re-analysis of the deposited data

Results flagged for a closer look

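The results below are singled out because a test of the difference itself was passed, either between the lines or between the absence and presence of Enza. Over all genes, 1821 differed between the lines and 186 by Enza. The values by line are log2 differences, 22Rv1 minus LNCaP. Of the genes called in 22Rv1 alone, those with a difference above 0 had 1.97 for CA13, 1.77 for F3, 1.65 for AQP3, 1.56 for SYNPO2, 1.43 for C9orf152, 0.65 for DDIT4 and 0.41 for H2BC8. In the same class H3C10 had 0.31. Of these, F3 had at most 0.18 CPM and SYNPO2 at most 0.306 CPM in LNCaP, and F3 did not pass with voom weights (adjusted p = 0.698). For C9orf152, every LNCaP library with E2 also lay above every LNCaP vehicle library (0.21, adjusted p = 0.0603), though this was not called. Those called in 22Rv1 alone, with a difference below 0, had -1.70 for FOSB, -1.14 for FOS, -1.12 for EGR1, -1.06 for EGR3 and -0.40 for ND4L. FOSB, FOS and EGR3 did not pass with voom weights, and EGR1 and FOS were low in LNCaP. The call of ND4L was lost in 1 fit of all 54 libraries and when some single libraries were left out. Of the genes called in LNCaP alone, those above 0 had 2.33 for DAPK1, 1.76 for CBLN2, 1.58 for SLC30A10, 1.23 for CAMK2N1, 0.85 for SLC7A5, 0.74 for NFKB1 and 0.66 for MYB. The values were also 0.65 for SESN1 and 0.27 for HOXB13. SLC30A10 reached at most 0.357 CPM in 22Rv1. Those called in LNCaP alone and below 0 had -3.11 for SLC2A3, -2.58 for PNLIP, -2.49 for SNAI2, -2.49 for NNT, -2.38 for PHLDB2, -2.05 for CSGALNACT1 and -1.46 for IGF1R. Of these, PNLIP and SNAI2 had 0 reads in 22Rv1 and SLC2A3 at most 0.096 CPM. A fall could not be measured there, and no rise to a higher level was seen. SLC2A3 did not pass with voom weights (adjusted p = 0.108). For PHLDB2, every 22Rv1 library with E2 lay below every 22Rv1 vehicle library (-0.19, adjusted p = 0.171), though this was not called. Others had -1.42 for TMEM121B, -1.23 for NR4A1, -1.20 for VLDLR, -1.08 for FOSL2, -0.91 for IRS2 and -0.71 for IRS1. Opposite responses, up in 22Rv1 and down in LNCaP, gave 1.56 for BIRC3, 1.53 for PHLDA1, 1.38 for SLC4A4, 1.34 for COLEC12, 1.33 for COLCA1, 1.25 for MAP1B and 1.18 for TP53INP1. There were also 0.78 for CA12, 0.63 for CCNE2, 0.51 for ERBB2, 0.47 for CDKN1A, 0.41 for SESN2 and 0.37 for PCNA. The reverse pattern, down in 22Rv1 and up in LNCaP, gave -2.18 for TTN, -1.44 for MAK, -1.41 for CADM2, -1.38 for MDGA1 and -0.59 for EGFR. Genes that moved the same way in both lines with a difference above 0 had 1.43 for STEAP1, 1.26 for LRRN1, 1.21 for MBOAT2, 0.99 for KLF9, 0.90 for STEAP2, 0.71 for IGF1 and 0.64 for SLC45A3. Next came 0.53 for CHRNA2, 0.50 for KLK3, 0.37 for NFKBIA, 0.28 for KLK4, 0.22 for RRM2 and 0.18 for KLK2. The call of KLK2 was lost with cyclic loess and under several other alternatives. Genes that moved the same way in both lines with a difference below 0 had -2.83 for CCDC141, -2.24 for STEAP4, -1.87 for SGK1, -1.41 for MAF, -1.40 for NDRG1, -1.35 for SLC38A4 and -0.85 for ELL2. The value of CCDC141 holds only on this scale, since it had 0 reads in all 22Rv1 vehicle libraries, and it turned to 0.81 with voom weights. For MAF and SGK1, low in 22Rv1, the added 0.5 CPM understates the rise there. A further set had -0.82 for GREB1, -0.73 for TMPRSS2, -0.34 for FKBP5, -0.30 for ERRFI1 and -0.23 for DNAJC3.

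By Enza, the values are the difference without Enza minus the difference with it. Above 0 they were 0.91 for AQP3, 0.71 for KLK3, 0.88 for KLK2, 0.46 for KLK4 and 1.16 for TMPRSS2. They also included 1.03 for SLC45A3, 1.52 for CHRNA2, 1.03 for GREB1 and 0.56 for CA12. Below 0 they were -0.57 for COLEC12, -0.89 for NDRG1, -1.30 for SLC2A3, -1.48 for PNLIP, -0.58 for FKBP5, -1.47 for STEAP4 and -1.69 for SGK1. The remaining ones were -0.60 for ERRFI1, -1.32 for FOS, -1.77 for FOSB, -0.48 for ELL2, -1.002 for FOSL2 and -0.97 for NR4A1.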

How the results depend on the processing

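The count of genes whose E2 response differed between the lines, 1821, lay between 1538 and 2006 under the other pseudocounts, filters, scalings, weights and the fit of all 54 libraries, and no alternative moved it by over 1.5 times. Leaving out 1 library gave 1251 (without 22Rv1 vehicle 1) to 2227 (without LNCaP vehicle 1). For E2 in 22Rv1 the range was 3230 to 5266, for E2 in LNCaP 2217 to 3175, and for the difference with Enza 913 to 1230. Scaling set the split: E2 in 22Rv1 gave 1469 up and 2295 down with total reads and 1704 up and 1710 down with cyclic loess, and E2 in LNCaP 1070 up and 2223 down with total reads. Deviations of same-numbered E2 and vehicle libraries correlated between -0.0738 and 0.00696, so no shared deviation by replicate number was seen. This cannot show whether the samples were paired by design. With a replicate block, 1385 genes were called in the difference, 4365 in 22Rv1, 2533 in LNCaP and 753 in the difference with Enza. Of 78 named genes called, 7 lost the call under at least 1 alternative, and CCDC141 turned to 0.81 with voom weights. Among genes not called, THSD7A changed sign to 0.56 (pseudocount 0.1), 0.0093 (TMM factors), 0.0604 (total reads), 0.12 (cyclic loess), 0.89 (voom) and 0.053 (without both vehicle libraries that stood apart). SLC26A3 changed sign to -1.47 (pseudocount 0.1) and -3.79 (voom), DLX1 to 0.25, OTULINL to -0.016 and PGC to -0.50 (pseudocount 2). Without both vehicle libraries OTULINL was at -0.014 and ESR2 at -0.016. Leaving out 1 library at a time, signs changed within -0.0911 to 0.125 for FOXD4, -0.0911 to 0.167 for ESR2, -0.135 to 0.11 for SLC26A3, -0.118 to 0.124 for THSD7A, -0.0516 to 0.199 for PGC, -0.263 to 0.0192 for NR3C1 and -0.181 to 0.0985 for DLX1. The causes were not tested. Depth limits low genes: the median standard error was 0.188 for tested genes averaging under 10 CPM, against 0.0962 over all genes.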
